A study of Mus musculus with 8 samples.

Results

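The 7 opsin genes Opn1sw, Opn1mw, Opn3, Opn4, Opn5, Rgr and Rrh were taken by symbol from the gene count tables of neural retinas, which list 43472 symbols. All 7 were found in every table. The tables come from mice of 3 weeks (postnatal day 21) on a C57BL/6J background, bred from heterozygous pairs, with 1 library for both retinas of each mouse. The control group consisted of 3 Mfp2+/+ mice and 1 Mfp2+/- mouse (control replicate 2), and it was compared with 4 Mfp2-/- mice, which lack the peroxisomal β-oxidation enzyme MFP2. The retinal pigment epithelium (RPE) had been dissected away, and whole neural retinas hold all other retinal cell types. Of the visual opsins, those of cones were analysed here.

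Opsins are G protein-coupled receptors that bind a retinal chromophore. In the visual opsins of photoreceptor outer segments, light isomerises the chromophore and the receptor activates transducin, which starts phototransduction. Mouse cones use a short-wavelength opsin (Opn1sw) and a middle-wavelength opsin (Opn1mw), many of them both, in proportions that vary from the ventral to the dorsal retina. The non-visual opsins act elsewhere. Opn4 encodes melanopsin of the intrinsically photosensitive ganglion cells, Opn5 encodes neuropsin, an ultraviolet-sensitive opsin found in some ganglion cells, and Opn3 encodes encephalopsin, which is expressed in brain and other tissues. Rgr encodes an opsin of the RPE and Müller glia that takes part in chromophore supply, and Rrh encodes peropsin of the RPE.

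The promoters of both cone opsin genes are shown because these genes shared a direction of change. They are RefSeq windows of GRCm38.p6, from 250 bases before to 50 bases after the start site, written 5′ to 3′ on the strand of the gene, and windows were found for 6 of the 7 opsins, all but Opn5. Capitals mark matches on either strand to the hexamers AGGTCA, bound by nuclear receptors, TATAAA, the core of the TATA box, and TAATCC, bound by homeodomain factors such as CRX and OTX2. The window of Opn1sw lies at chr6:29380464-29380763 on the minus strand and that of Opn1mw at chrX:74127216-74127515 on the plus strand.
Opn1sw: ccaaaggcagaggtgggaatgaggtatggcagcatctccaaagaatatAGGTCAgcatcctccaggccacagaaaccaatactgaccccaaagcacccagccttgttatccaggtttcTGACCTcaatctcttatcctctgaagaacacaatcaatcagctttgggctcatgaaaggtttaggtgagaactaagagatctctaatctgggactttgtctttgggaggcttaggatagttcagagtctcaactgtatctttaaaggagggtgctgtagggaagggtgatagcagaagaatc
Opn1mw: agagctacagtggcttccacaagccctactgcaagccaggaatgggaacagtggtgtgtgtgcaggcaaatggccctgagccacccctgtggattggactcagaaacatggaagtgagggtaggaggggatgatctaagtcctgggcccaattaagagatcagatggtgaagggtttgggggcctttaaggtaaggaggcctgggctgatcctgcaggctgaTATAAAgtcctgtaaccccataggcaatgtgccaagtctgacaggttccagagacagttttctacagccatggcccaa
The Opn1sw window holds AGGTCA at -202 and its reverse complement TGACCT at -132, counted from the start site, and no TATAAA. The Opn1mw window holds TATAAA at -28 and no AGGTCA. Neither window holds TAATCC, which among the 6 opsins was found in that of Rgr, at -167. The Rgr window, 37048965 to 37049264 of chromosome 14, lies wholly before the gene as placed below (37034909 to 37048964, minus strand). Its position thus depends on the RefSeq start site. Of 32851 promoter windows of the same length, 16.3% hold AGGTCA, 13.6% TATAAA and 7.06% TAATCC on either strand. The match is one of letters and does not show binding.

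The libraries held 1895485 to 3226187 counts in genes. The targeted gene Hsd17b4, which encodes MFP2, had 20 to 78 counts in control and 0 or 1 count in Mfp2-/- libraries. Levels are given as CPM, counts of a gene per 1000000 counts of the library after scaling with TMM factors, and the kit reads the 3′ ends of transcripts, so CPM were not divided by transcript length. The filter on low counts kept 12516 genes, among them 5 of the 7 opsins. In the quasi-likelihood test of edgeR, with p-values adjusted over all these genes by Benjamini-Hochberg, 3 of the 5 opsins passed an adjusted p of 0.05, 2 downregulated (Opn1sw and Opn1mw) and 1 upregulated (Rrh). Of all genes tested, 27.0% passed, 13.2% lower and 13.8% higher. The share of higher genes among the calls was 51.2%, and it was 64.2% under upper-quartile scaling and 65.2% under scaling to total counts. All 4 Mfp2-/- libraries lay below all controls in 15.8% of genes, and above them in 15.1%. Mfp2-/- replicates 2 and 3 stood apart in their reads outside annotated genes, at 10.8% and 15.7% of all reads against 22.6% to 29.9% in the other 6 libraries. The values of Rrh and Opn4, which were highest in these libraries, and the list counts that changed are also given without them.

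Both cone opsin genes were downregulated in Mfp2-/- retinas. In the counts as deposited the fall was larger for Opn1sw than for Opn1mw, a ranking that turns around if all reads of the overlapping gene Calu are added to Opn1sw. Opn1sw (chromosome 6, 29376671 to 29388468 of GRCm38, minus strand) was read 1071, 751, 1274 and 919 times in the controls, in replicate order, and 118, 61, 114 and 52 times in the Mfp2-/- retinas. Scaled to library size, this was 390, 340, 411 and 320.1 CPM in control and 41.8, 31.0, 38.3 and 19.1 CPM in Mfp2-/- retinas. Every Mfp2-/- library lay far below every control, and the lowest was Mfp2-/- replicate 4. The level fell 11.2-fold, from 365 ± 42.3 to 32.5 ± 10.01 CPM (SD, n = 4 mice per group), a log2 fold change of -3.48 with a standard error of 0.23 (adjusted p = 1.7e-06). From this level alone, fewer cones and less Opn1sw RNA per cone cannot be told apart, and its ratio to other cone transcripts is given with the cone genes.

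Opn1mw (chromosome X, 74127464 to 74150760, plus strand) had 769, 497, 742 and 730 counts in control and 206, 165, 279 and 149 counts in Mfp2-/- libraries. The levels were 279.9, 225, 239 and 254 CPM in control and 72.9, 83.8, 93.8 and 54.8 CPM in Mfp2-/- retinas. The groups did not overlap, and Mfp2-/- replicate 4 was again the lowest library. The fall was 3.27-fold, from 249.6 ± 23.5 to 76.3 ± 16.7 CPM (log2 fold change -1.71, standard error 0.17, adjusted p = 4.5e-05). Relative to the mean, the spread between mice was wider in Mfp2-/- retinas for both genes, with a coefficient of variation of 30.8% against 11.6% for Opn1sw and 21.9% against 9.42% for Opn1mw. This difference in spread was not tested.

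In the counts as deposited, the order of the cone opsins differed between the groups. In each of the 4 control libraries Opn1sw was more abundant than Opn1mw, and in each of the 4 Mfp2-/- libraries it was less abundant. The ratio of Opn1sw to Opn1mw counts within a library was 1.39, 1.51, 1.72 and 1.26 in control and 0.573, 0.370, 0.409 and 0.349 in Mfp2-/- retinas. This ratio does not depend on how libraries are scaled. Its mean was 1.47 ± 0.194 in control and 0.425 ± 0.102 in Mfp2-/- retinas, a difference in mean log2 ratio of -1.81 (standard error 0.19, n = 4 mice in each group, two-sided p = 0.0286 in an exact permutation test). That p is the smallest that 4 mice against 4 can give.

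At the 3′ end of its longest transcript, Opn1sw shares 397 exon bases, between 29376671 and 29377110 of chromosome 6, with Calu, a gene of the other strand that encodes a calcium-binding protein. The sources used here do not say whether strand was used in counting. Reads of the shared bases may have been given to either gene or left as ambiguous between genes. Calu, at 66.7 ± 21.8 CPM in control against 114.4 ± 45.6 CPM in Mfp2-/- retinas, missed the threshold (adjusted p = 0.0887) at a log2 fold change of 0.77 ± 0.31 (standard error). With all Calu reads added to those of Opn1sw, the sums were 399 to 498 CPM in control and 91.9 to 200.2 CPM in Mfp2-/- retinas, which still did not overlap, and the fitted log2 fold change was -1.56 (standard error 0.22, adjusted p = 5.7e-04). This fall was smaller than that of Opn1mw (-1.71), so the downregulation of Opn1sw held and its ranking above Opn1mw did not. The ratio to Opn1mw with Calu reads added was 1.53, 1.79, 2.08 and 1.57 in control and 1.68, 2.39, 1.84 and 1.68 in Mfp2-/- libraries. It lay above 1 in all 8 libraries and the groups overlapped, with a log2 difference of 0.12 (standard error 0.16, exact permutation test, two-sided, p = 0.486). The change in the order and in the ratio of the cone opsins thus rests on Calu reads not being those of Opn1sw. Adding every Calu read is the extreme case of a split between the genes. It does not cover reads left as ambiguous, which were 0.26% to 0.34% of all reads and have no gene in the counts. Taken over all genes, these reads outnumbered the Opn1sw counts in every library, so the sum with Calu does not bound the error. The shared bases lie at the 3′ ends of Calu and of the longest Opn1sw transcript, where the kit reads. The other annotated Opn1sw transcripts have their 3′ ends at 29377384, 29378931 and 29379373, outside the shared bases. Which transcripts gave the reads, and the true division of reads, were not tested. Without Mfp2-/- replicates 2 and 3, in which this sum was highest among the Mfp2-/- libraries, the log2 fold change was -2.01 for Opn1sw with Calu and -1.97 for Opn1mw. Opn1mw shares no exon bases with another annotated gene.

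**Figure D1:**
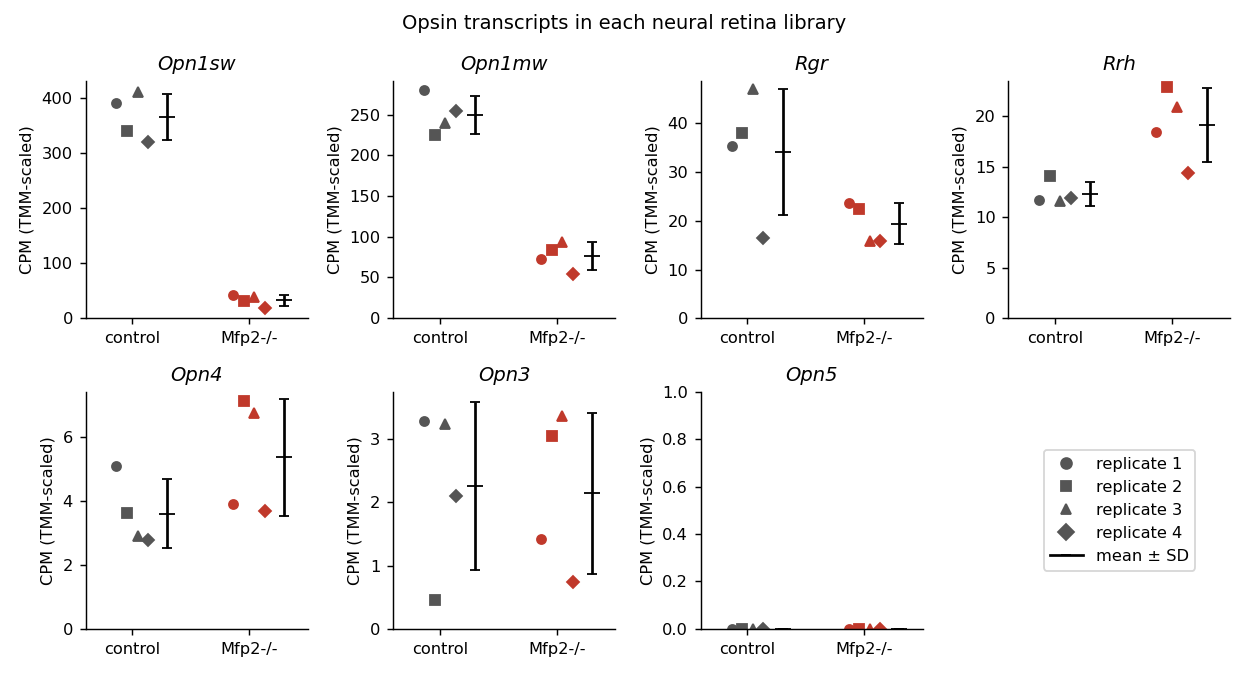
CPM (TMM-scaled, linear axes from 0) of the 7 opsin genes in each library. Each symbol is 1 mouse, its shape gives the replicate number, and bars mark group means with SD (n = 4). Opn1sw and Opn1mw are lower in all 4 Mfp2-/- libraries, Rrh is higher in all 4, the groups overlap in Rgr, Opn4 and Opn3, and Opn5 is at 0 in all 8.

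To see whether the cone opsins followed other transcripts of cones, each was set against the summed counts of 7 genes used mainly by cones: Arr3 (cone arrestin), Gnat2 and Gngt2 (cone transducin subunits), Pde6c and Pde6h (cone phosphodiesterase subunits) and Cnga3 and Cngb3 (cone channel subunits). This comparison was chosen after the values had been seen. The sum averaged 913 ± 58.2 CPM in control against 666 ± 48.4 CPM in Mfp2-/- libraries. Per count of the 7 genes, Opn1sw was at 0.390, 0.384, 0.463 and 0.364 in control and at 0.0599, 0.0505, 0.0601 and 0.0267 in Mfp2-/- libraries. Opn1mw was at 0.2798, 0.254, 0.2698 and 0.289 in control and at 0.105, 0.137, 0.147 and 0.0765 in Mfp2-/- libraries. Both ratios were lower in all 4 Mfp2-/- libraries than in any control. The difference in mean log2 ratio was -3.09 (standard error 0.29) for Opn1sw and -1.28 (standard error 0.22) for Opn1mw, both with p = 0.0286 in the exact permutation test, two-sided. Over the 3 ratios tested the adjusted p was also 0.0286. The unadjusted p is the smallest that 4 mice against 4 can give. Since the comparison was chosen with the values known, these p-values add no support beyond the values. With Calu reads added, the log2 difference for Opn1sw was -1.16 (standard error 0.32, exact permutation p = 0.0286).

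**Figure D2:**
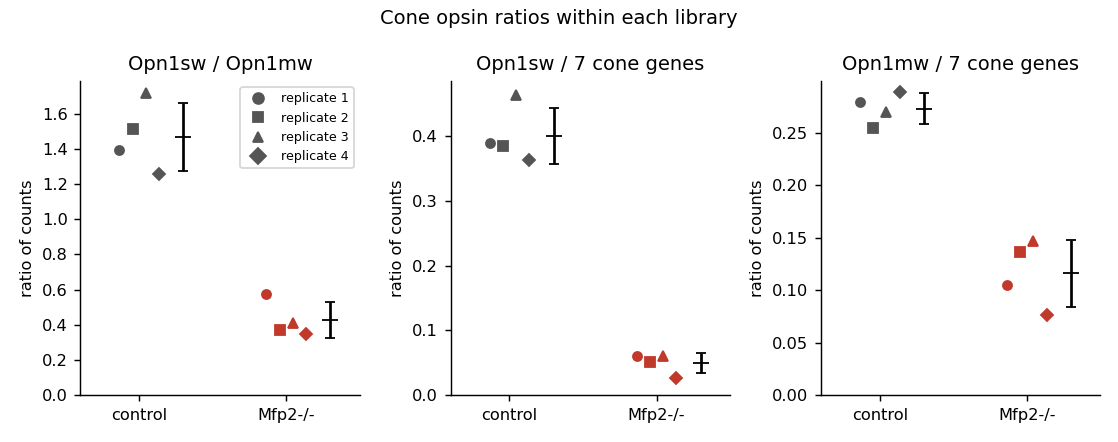
Ratios of read counts within each library, on linear axes from 0: Opn1sw over Opn1mw (left), Opn1sw over the summed counts of 7 cone genes (middle) and Opn1mw over the same sum (right). Symbols stand for mice and bars for group means with SD (n = 4). In all 3 ratios every Mfp2-/- library lies below every control, and the left ratio is above 1 in control and below 1 in Mfp2-/- libraries, which does not hold with Calu reads added to Opn1sw.

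Among 18 listed genes of cone phototransduction, 17 were tested, of which 12 were downregulated and 2 upregulated, with a median log2 fold change of -1.03 against -0.0039 over all genes tested. Over all genes tested, 13.2% were lower and 13.8% higher. The list also holds genes that act in rods, so its counts and median are not those of cones alone. The largest falls were those of Gucy2f (-4.47), which makes cyclic GMP, and Kcnv2 (-3.79), a channel subunit, in log2 fold change. Neither is among the 7 genes used mainly by cones. Lowest in adjusted p were Rcvrn (recoverin, -3.54), Gucy2e (a guanylate cyclase, -3.56), Rgs9bp (an anchor of the GTPase-activating complex, -3.61) and Grk1 (the opsin kinase, -3.65), with adjusted p from 1.6e-07 to 2.9e-07, all of which also act in rods. Of the 7 genes used mainly by cones, Gnat2 (-1.03, adjusted p = 2.6e-04) and Arr3 (-0.73, adjusted p = 0.0148) were downregulated less. So were Gngt2 (-0.59, adjusted p = 0.00938) and Pde6h (-0.47, adjusted p = 0.0338). Cnga3 (0.03, adjusted p = 0.961) and Cngb3 (-0.77, adjusted p = 0.299) did not pass. The upregulated genes were Gnb3, a transducin β subunit that ON bipolar cells also express (0.71, adjusted p = 0.00165), and Pde6c, also of the 7 (0.55, adjusted p = 0.0341). Without Mfp2-/- replicates 2 and 3, Slc24a2 was also called upregulated (0.66, adjusted p = 0.00700), making 3 upregulated and 12 downregulated. On this scale Opn1sw, at -3.48 in the counts as deposited, lay close to Rcvrn, and Opn1mw, at -1.71, between Rcvrn and Gnat2. With all Calu reads added, Opn1sw was at -1.56, also between Rcvrn and Gnat2. All 14 rod markers listed were downregulated (median -4.57 on the log2 scale), including Reep6, Gnat1, Prph2 and Pde6a.

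Of 15 listed transcription regulators of photoreceptor fate and cone opsin genes, all 15 were tested, of which 11 were downregulated and 2 upregulated, with a median log2 fold change of -1.36. Over all genes tested, 13.2% were lower and 13.8% higher. Crx, a homeodomain activator of photoreceptor genes, dropped from 436 ± 41.8 to 92.2 ± 2.71 CPM (log2 fold change -2.24, standard error 0.13, adjusted p = 5.3e-07). Lowest in adjusted p were Nrl (-4.99) and Nr2e3 (-4.38), which specify rods and repress cone genes there, and Samd11 (-4.03) and Samd7 (-3.40), corepressors of photoreceptors, in log2 fold change. Thrb, which encodes a thyroid hormone receptor required for Opn1mw expression, changed by -1.36 (standard error 0.25, adjusted p = 0.00299), and Rorb, an activator of Opn1sw, by -1.02 (standard error 0.33, adjusted p = 0.0433). Rxrg, a retinoid X receptor that represses Opn1sw in dorsal cones, was at 8.98 ± 2.21 and 9.69 ± 3.52 CPM and missed the threshold (adjusted p = 0.875; log2 fold change 0.08, standard error 0.30). Nr2f1 (0.81, adjusted p = 0.00130) and Nr2f2 (0.54, adjusted p = 0.00880), nuclear receptors with roles in the dorsal to ventral pattern of opsins, were upregulated. Without Mfp2-/- replicates 2 and 3, Rora was also called downregulated (-0.46, adjusted p = 0.0278). This made 12 of 15 downregulated and 2 upregulated, with a median log2 fold change of -0.97.

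**Figure D3:**
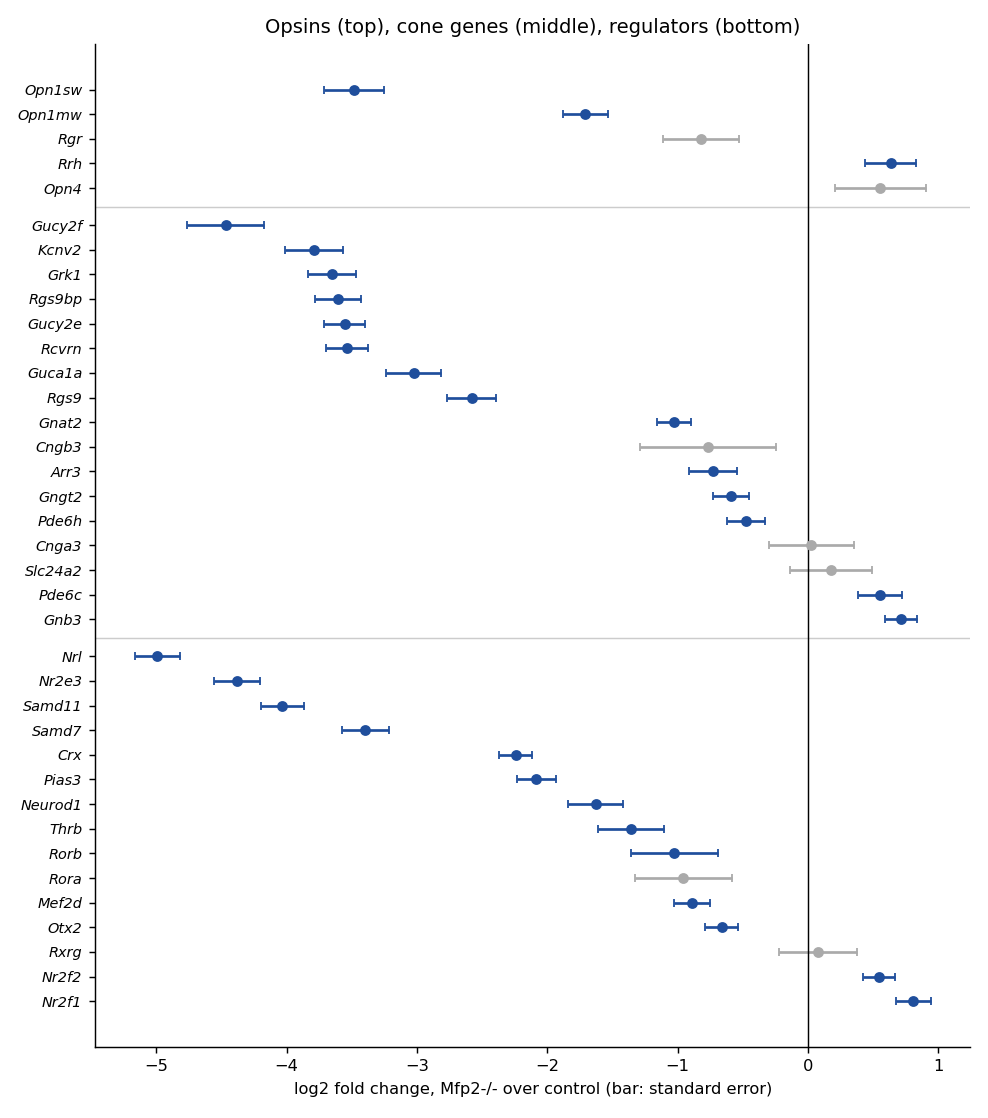
Log2 fold change of Mfp2-/- over control retinas with its standard error for the 5 opsins tested (top), 17 cone genes (middle) and 15 regulators (bottom); blue points passed an adjusted p of 0.05 and grey points did not. Opn1sw at -3.48 lies level with Rcvrn and Gucy2e, and Opn1mw at -1.71 lies between Crx and Neurod1. Counts are as deposited, and with all Calu reads added to Opn1sw its log2 fold change was -1.56.

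In the counts as deposited, the genes whose profile over the 8 libraries was most like that of a cone opsin differed between the cone opsins. Likeness was measured as the root mean square difference of log2 CPM, each gene centred at its own mean, among genes at 10 CPM or more. For Opn1sw the nearest genes were Grk1 (0.18), Rgs9bp (0.21), Ankrd33 (0.23), Cngb1 (0.24) and Gngt1 (0.27). Cngb1 and Gngt1 encode a channel and a transducin subunit of rods. For Opn1mw they were Drd4 (0.11), a dopamine receptor gene, BC033916 (0.15), Slc17a7 (0.15), a vesicular glutamate transporter gene, and Rd3 (0.16), a partner of the guanylate cyclases. Their own log2 fold changes ran from -3.78 for Cngb1 to -3.11 for Gngt1 in the first set and from -1.82 for Rd3 to -1.64 for BC033916 in the second. Since the groups lie apart, the measure mostly reflects the size of the group difference. With all Calu reads added, that difference was -1.56 for Opn1sw and -1.71 for Opn1mw. The nearest profiles were not worked out for that case.

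Rrh, at a low level, was the only opsin called upregulated. Rrh (chromosome 3, 129804408 to 129822587, minus strand) had 32, 31, 36 and 34 counts in control and 52, 45, 62 and 39 counts in Mfp2-/- libraries. This was 11.6, 14.02, 11.6 and 11.8 CPM in control and 18.4, 22.9, 20.8 and 14.3 CPM in Mfp2-/- retinas. The groups did not overlap, though Mfp2-/- replicate 4 lay just above control replicate 2. The level rose 1.55-fold, from 12.3 ± 1.17 to 19.1 ± 3.67 CPM (log2 fold change 0.64, standard error 0.20, adjusted p = 0.0354). This call was lost without any 1 library other than Mfp2-/- replicate 4 (adjusted p 0.0528 to 0.0951, log2 fold change 0.55 to 0.69). The highest libraries were Mfp2-/- replicates 2 and 3, those with few reads outside genes, and without both the log2 fold change was 0.42 (adjusted p = 0.227). The part of this in the result was not tested. The nearest profiles to Rrh were those of Ncdn (0.084), Gmpr (0.096), Arhgef17 (0.10), Ensa (0.11) and Nlgn3 (0.11), by the same measure as for the cone opsins.

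Rgr (chromosome 14, 37034909 to 37048964, minus strand) had 97, 84, 146 and 47 counts in control and 67, 44, 47 and 43 counts in Mfp2-/- libraries. The levels were 35.3, 38.0, 47.1 and 16.4 CPM in control and 23.7, 22.4, 15.8 and 15.8 CPM in Mfp2-/- retinas. Control replicate 4 lay among the Mfp2-/- libraries, and the other 3 controls lay above all of them. Rgr did not pass the test, the means being 34.2 ± 12.9 and 19.4 ± 4.21 CPM (log2 fold change -0.82, standard error 0.29, adjusted p = 0.0610). It passed without control replicate 4 (log2 fold change -1.05, adjusted p = 0.00751), with DESeq2 (-0.81, adjusted p = 0.0472) and without the filter on low counts (-0.84, adjusted p = 0.0340). Its nearest profiles were Aven (0.23), Hba-a1 (0.27), a haemoglobin gene with a near-identical copy, Cables2, Morn2 and Desi1 (each 0.28).

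Rrh and Rgr are known from the RPE, which the dissection removes, and RPE transcripts were present in both groups. Of 14 listed RPE markers none was at 0 over the libraries, and their summed level was 288 to 494 CPM in control and 484 to 795 CPM in Mfp2-/- libraries, which overlapped. The highest were Ttr (means of 220 and 304 CPM) and Dct (83.7 and 146 CPM) in control and Mfp2-/- retinas. Among the lowest, Best1 had 5 and 7 counts in the groups and Tyr 2 and 7. Of 11 RPE markers tested, 1 was upregulated and 0 downregulated, against 13.8% higher and 13.2% lower over all genes tested. Their median log2 fold change was 0.43. The gene that passed was Slc26a7, an anion exchanger gene (log2 fold change 1.61, standard error 0.31, adjusted p = 0.00338). Rpe65, the isomerase that defines the RPE, averaged 14.1 ± 4.08 and 13.1 ± 2.91 CPM in the respective groups (adjusted p = 0.758 at a log2 fold change of -0.12, standard error 0.25). The list for Müller glia had 12 tested genes, 7 of them upregulated and 0 downregulated, with a median log2 fold change of 0.95, and their summed level was higher in every Mfp2-/- library (5153 to 6804 CPM) than in the controls (4052 to 4700 CPM). Those with the smallest adjusted p were Crym (1.95), Apoe (1.48), Slc1a3 (1.08) and Sox9 (1.08), in log2 fold change. Not all members were higher: Glul, the glutamine synthetase gene and the most abundant of the list in control, was at 2300 ± 312 and 1604 ± 525 CPM (-0.52, adjusted p = 0.111), and passed as downregulated without Mfp2-/- replicates 2 and 3 (-0.75, adjusted p = 0.0144). Rlbp1 (-0.01, adjusted p = 0.965) and Abca8a (-0.04, adjusted p = 0.898) also did not pass. The share of RPE or Müller RNA in the values of Rrh and Rgr was not tested.

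Opn4, the melanopsin gene (chromosome 14, 34590618 to 34600142, minus strand), had 14, 8, 9 and 8 counts in control and 11, 14, 20 and 10 counts in Mfp2-/- libraries. The levels were 5.10, 3.62, 2.90 and 2.79 CPM in control and 3.89, 7.11, 6.72 and 3.68 CPM in Mfp2-/- retinas. The groups overlapped, and Mfp2-/- replicates 2 and 3 were the only libraries above the controls. Opn4 did not pass the test, the means being 3.60 ± 1.06 and 5.35 ± 1.82 CPM (log2 fold change 0.56, standard error 0.35, adjusted p = 0.261). Without both of these libraries the log2 fold change was 0.07 (adjusted p = 0.924). Opn4 was kept by the filter because 4 Mfp2-/- libraries reached its threshold of 3.54 CPM (here without TMM factors), as did 1 control. It shares 130 exon bases with Gm49012, which had 0 counts in every library. The nearest profiles were Pih1d1 (0.12), Rpl32 (0.13), Flot2 (0.14), Dusp28 (0.14) and Hbegf (0.15).

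Markers of ganglion cells, the cells that carry melanopsin, were set beside Opn4. The ganglion cell list had 12 tested genes, 7 of them upregulated and 0 downregulated, with a median log2 fold change of 0.56 and a summed level of 1749 to 2249 CPM in control and 2649 to 3053 CPM in Mfp2-/- libraries. Among those called were Rbpms (0.81), Isl1 (0.78, also a bipolar cell gene), Nefm (0.54) and Pou4f1 (0.56). Without Mfp2-/- replicates 2 and 3, 4 of the 12 were upregulated, and Pou4f1 was no longer called (0.52, adjusted p = 0.0523). Over all genes tested without these libraries, 1731 of 13044 were upregulated. Of 9 markers associated with the melanopsin cells, 6 were tested and 2 were upregulated, Rasgrp1 (log2 fold change 1.01, adjusted p = 0.00904) and Spp1 (1.57, adjusted p = 0.0342), both also expressed in other cells. Eomes, a transcription factor of the melanopsin cells, averaged 10.5 ± 4.90 and 12.9 ± 3.78 CPM (log2 fold change 0.26, adjusted p = 0.613). Of 11 listed genes of melanopsin signalling, 9 were tested and 1 was upregulated, against 13.8% of all genes tested. It was Arrb1, a β-arrestin gene (0.61, adjusted p = 0.00799). The G protein gene Gnaq (0.18, adjusted p = 0.387), the phospholipase C gene Plcb4 (0.12, adjusted p = 0.843) and the channel gene Trpc7 (0.03, adjusted p = 0.958) did not pass. Without the same libraries Gnaq (0.37, adjusted p = 0.0362) and Plcb4 (0.68, adjusted p = 0.00636) were called, making 3 of 9 upregulated. Of the melanopsin cell markers, Spp1 was then not called (1.48, adjusted p = 0.0622) and Igf1 was (0.92, adjusted p = 2.7e-04). This left 2 of 6 upregulated.

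Opn3 and Opn5 did not reach the filter. Opn3 (chromosome 1, 175662421 to 175692776, minus strand) had 9, 1, 10 and 6 counts in control and 4, 6, 10 and 2 counts in Mfp2-/- libraries. This was 3.28, 0.452, 3.23 and 2.09 CPM in control and 1.42, 3.05, 3.36 and 0.735 CPM in Mfp2-/- retinas, with overlapping groups and a low library in each. The means of 2.26 ± 1.32 and 2.14 ± 1.27 CPM (SD, n = 4 per group) gave p = 0.914 in the exact permutation test, two-sided. The 26 control and 22 Mfp2-/- counts made a ratio of 0.882 of Mfp2-/- to control after scaling, and the 95% exact interval, for counting error alone, ran from 0.476 to 1.62. A change within these bounds could not be seen at this depth. Near its 5′ end Opn3 shares 461 exon bases with Chml, a gene on the same strand. Opn5 (chromosome 17, 42556783 to 42611395, minus strand) had 0 counts in all 8 libraries, which allows a level of up to 0.140 CPM over all libraries, or 0.968 to 1.52 CPM in a single library, when 3 counts are taken as the limit.

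Set against each other, the visual opsins fell while the summed non-visual opsins overlapped between the groups. Opn1sw and Opn1mw together were at 670, 565, 650.2 and 574 CPM in control and at 115, 115, 132 and 73.9 CPM in Mfp2-/- retinas. The 5 non-visual genes together were at 55.3, 56.1, 64.8 and 33.1 CPM in control and at 47.4, 55.4, 46.7 and 34.6 CPM in Mfp2-/- retinas. The means were 615 ± 53.0 against 109 ± 24.7 CPM for the visual and 52.3 ± 13.5 against 46.0 ± 8.59 CPM for the non-visual class. Rgr and Rrh make up most of the second sum, with a lower mean of Rgr and a higher mean of Rrh in Mfp2-/- retinas, and Rgr did not pass the test. Of the counts of all 7 opsins, the visual class took 92.2 ± 1.70% in control and 70.1 ± 2.91% in Mfp2-/- libraries. Opn1sw went from 54.7 ± 2.04% to 20.8 ± 3.73% of these counts and Opn1mw from 37.5 ± 3.56% to 49.3 ± 3.16%. In the counts as deposited, the share of Opn1mw was higher in Mfp2-/- libraries although its level was lower. With all Calu reads added to Opn1sw, the ratio of Opn1sw to Opn1mw was above 1 in every library. The shares were not worked out for that case. Rrh went from 1.86 ± 0.310% to 12.4 ± 1.06%, and Opn4 from 0.538 ± 0.133% to 3.43 ± 0.759%. The share of each non-visual gene with counts was higher in every Mfp2-/- library than in every control, since shares of a fixed sum rise when the largest part falls. No test was made of the classes.

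**Figure D4:**
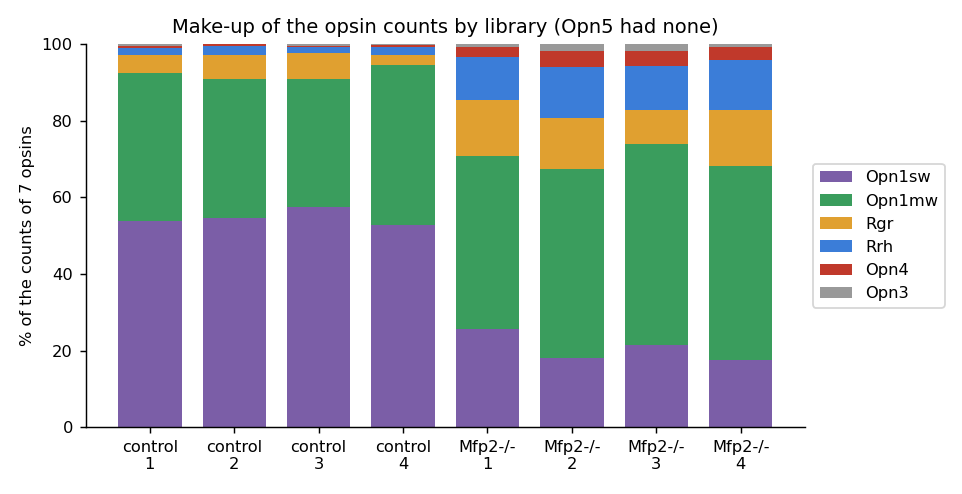
Stacked bars of the share of each opsin in the counts of all 7 opsins, in percent, for the 8 libraries, each of 1 mouse. Opn1sw is the largest part in the 4 controls and Opn1mw in the 4 Mfp2-/- libraries, where Rgr and Rrh take 12.8% and 12.4% on average. Counts are as deposited, and with Calu reads added to Opn1sw the ratio of Opn1sw to Opn1mw is above 1 in every library.

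In control retinas the order of levels was Opn1sw, Opn1mw, Rgr, Rrh, Opn4, Opn3 and Opn5. Neighbours did not overlap between libraries except Opn4 and Opn3, of which Opn4 was higher in 3 of 4 libraries. In the counts as deposited, Opn1mw came first in Mfp2-/- retinas and Opn1sw followed without overlap. With all Calu reads added to Opn1sw, the ratio of Opn1sw to Opn1mw was above 1 in all 4 of these libraries. Rgr and Rrh could not be ordered there, with Rgr higher in 2 of 4 libraries. The lowest Opn1sw level there, 19.1 CPM, lay within the range of Rgr, 15.8 to 23.7 CPM. The Mfp2+/- control lay within the range of the 3 Mfp2+/+ controls for Opn1sw, Opn4 and Rgr. It lay below that range for Opn1mw (225 against 239 to 279.9 CPM) and Opn3 (0.452 against 2.09 to 3.28 CPM) and above it for Rrh (14.02 against 11.6 to 11.8 CPM). With 1 mouse of this genotype, the difference was not tested.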

How the data were processed

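Gene counts of 4 control and 4 Mfp2-/- neural retina libraries were used. The libraries were prepared with the QuantSeq 3′ kit and sequenced as single-end reads. The authors deposited raw counts per gene symbol without normalization, and the submitters' processing notes name FastQC 0.11.7, HISAT2, SAMtools 1.5, HTSeq 2.7.14 and the genome mm10. For the annotation release, the HISAT2 version and the strand setting, the sources used here give nothing. Rows without a gene were left out of library sizes, and reads outside genes made up 10.8% to 29.9% of all reads. The series-wide table held 0 different values over 21129 shared symbols.

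Counts were analysed with edgeR 4.0.16 in R 4.3.3 (filterByExpr, TMM factors, quasi-likelihood test, Benjamini-Hochberg adjustment), with limma 3.58.1 and DESeq2 1.42.0 as alternatives. The standard error was the log2 fold change divided by the square root of F. Log2 CPM used a prior count of 2. Exact permutation tests and binomial intervals at 95% were computed with SciPy 1.17.1. The fits were tested on simulated counts. The opsins and gene lists were chosen with earlier results of these data known. Named genes were the opsins, genes overlapping them, Hsd17b4, from each list at most the 4 called genes of lowest adjusted p, listed genes whose role bears on an opsin, and the 5 nearest profiles, except for a gene that is not reported here. Pairs of replicates of a group differed beyond sampling noise. Coordinates are those of GENCODE M21 on GRCm38. Each library was 1 mouse. Alternatives were other library factors, other filters, the replicate block and leaving out libraries.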

Additional observations from a re-analysis of the deposited data

Results flagged for a closer look

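In the control group the Rrh level of the Mfp2+/- mouse, control replicate 2, was 14.02 CPM, while the 3 Mfp2+/+ controls lay between 11.6 and 11.8 CPM. Its gap to the nearest control was wider than Dixon's limit for 4 samples. The same comparison was made for 12 groups of opsin values, and chance marks about 1 in 20. The library held 31 counts of Rrh.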

How the results depend on the processing

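The calls and directions of Opn1sw and Opn1mw were kept under every alternative run, with, apart from the Calu reads, log2 fold changes of -3.60 to -3.28 and -1.97 to -1.56. With all Calu reads added to Opn1sw, an alternative taken up with the data known, Opn1sw stayed called at -1.56 (-2.01 without Mfp2-/- replicates 2 and 3), and the log2 difference of the Opn1sw to Opn1mw ratio reversed to 0.12. Upper-quartile factors and total counts shifted all genes by a median of 0.12 (log2), and the direction of each of the 5 tested opsins held under them. Rrh also lost its call with DESeq2 (adjusted p = 0.0516), without the filter (adjusted p = 0.0727) and with the replicate number as a block (adjusted p = 0.0640). The sample titles give replicate numbers but do not say whether these pair the mice. Same-numbered libraries correlated at 0.08, -0.16, 0.25 and 0.21 in their deviations from group means, which cannot settle it. The block gave 2845 calls over all genes against 3377. Leaving out 1 library gave 2474 to 3524 calls.

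The log2 differences of the ratios ran from -1.96 to -1.72 for Opn1sw to Opn1mw, from -3.20 to -2.81 for Opn1sw to the cone genes and from -1.41 to -1.09 for Opn1mw to the cone genes when 1 library was left out, and were -1.71, -3.32 and -1.61 without both Mfp2-/- replicates 2 and 3. With the replicate block they were -1.81, -3.09 and -1.28 (exact sign permutation). The smallest p these tests allow is 0.0571, 0.133 and 0.125, so none can pass. The difference of Opn3, -0.120 CPM, was 0.0691 CPM with total counts and ran from -0.723 to 0.348 CPM without 1 library, and was -1.19 CPM without Mfp2-/- replicates 2 and 3, so it has no direction. Depth limits Opn3, Opn4 and Opn5, and their intervals and limits cover counting error only.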
